A study of Mus musculus with 3 samples.

Results

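The killer lectin receptors, the granzymes, perforin (Prf1) and Nkg7 were followed in single cells from mouse brains with glioblastoma (GBM). Members were all rows of the count table whose symbol begins with Klra to Klrk followed by a digit, with Klrb1, or with Gzma to Gzmn, together with Prf1 and Nkg7. The rule took 42 of 50262 genes, and 34 of the 42 had at least 1 UMI in the CD45+ cells kept. A UMI is a tag that marks 1 captured RNA molecule, and levels are given in CPM, the usual scaling of a gene's UMIs to a common total of all UMIs in the same cells. The 42 genes comprised 14 Ly49 (Klra) genes, 6 NKR-P1 (Klrb1) genes, 5 CD94 and NKG2 genes (Klrc, Klrd1 and Klrk1), 5 other killer lectin genes, 10 granzymes, and the granule proteins Prf1 and Nkg7.

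Natural killer (NK) cells and cytotoxic T cells kill target cells by releasing granules that hold perforin, which opens the target membrane, and granzymes, proteases that start cell death inside the target. Whether an NK cell releases its granules depends on the balance of inhibitory and activating receptors, and in mice many of these are C-type lectins. Most Ly49 receptors and the CD94-NKG2A pair (Klrd1 with Klrc1) bind MHC class I proteins and inhibit, while NKG2D (Klrk1) binds stress-induced ligands and activates. Nkg7 encodes a membrane protein of the cytotoxic granule.

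The tumors were driven by conditional human EGFR on a background that included loss of Cdkn2a, carried a conditional luciferase reporter, and were started by injecting a Cre lentivirus into the striatum of mice of mixed background (FVBN/J, SJL, Balb/cJ, 129S4 and C57Bl/6J). No normal brain was analysed here. Perfused brains without cerebellum were dissociated, and viable CD45+ and CD45- cells were sorted and run on inDrop, a droplet method that counts the 3′ ends of transcripts. Each of the early, medium and late stages had 1 tumor sample with 4 libraries per sort, so stages were described with counting intervals and not tested. Per the study's methods early samples were each pooled from a pair of mice or tumors. Sex was not given per tumor, and Ly49 and NKR-P1 gene content varies between mouse strains, whose part in any difference between the 3 tumor samples was not tested. Of 20811 deposited cells, 17781 were kept, 11185 of them CD45+ (5091 early, 3983 medium and 2111 late), with a median of 1964 to 2109 UMIs per cell. Ptprc, the gene of CD45, stood at 227 to 250 CPM in the CD45+ sorts and at 3.59 to 15.9 in the CD45- sorts. Library sizes were uneven, from 17 to 1751 cells among CD45+ libraries, and 2117 of 18335 cell barcodes occurred in more than 1 library.

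The members lie in few places of the mouse genome (GRCm38). The NK gene complex on chromosome 6, from Klrb1a to Klra2 (chr6:128609227-131247362), held 28 of the 42, and a granzyme cluster on chromosome 14 from Gzme to Gzmb (chr14:56117626-56262260) held 7. Gzma and Gzmk were neighbours on chromosome 13. Because these families arose by duplication, some rows share sequence. Of the 31-base words in the last 400 bases of their transcripts, 74.9% for Klrc1, 42.9% for Klra7 and 26.9% for Klrb1b were also found in another gene (mainly Klrc2, the pseudogene Klra13-ps and the readthrough Gm44511), against 0% for Gzma, Gzmb, Klrd1, Klrk1 and Nkg7. Counts of Klrc1 against Klrc2 and of single Ly49 genes are uncertain for this reason, as are those of Klrb1b and Klrb1c, which both overlap Gm44511. For Klrb1a 18.8% of the words were shared, mostly with Klrb1c (13.5%), so the levels of these 2 genes are not fully separate.

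The 250 bases before the RefSeq transcription start (GRCm38.p6) are shown for 5 members, 3 that were called in a comparison of cell classes and the 2 granzymes with the most UMIs. Capitals mark TGTGGT (reverse ACCACA), a core of sites for RUNX factors, TCACAC (reverse GTGTGA), a core of T-box sites, and AGGAAG (reverse CTTCCT), a core of ETS sites, all searched on both strands. Prf1 (chr10:61297586-61297835, plus strand) and Klra4 (chr6:130067272-130067521, minus strand) were higher in NK-like cells, and Klrc1 (chr6:129678974-129679223, minus strand) was higher in CD8 T-like than in other T-like cells. Gzma (chr13:113100982-113101231, minus strand) and Gzmb (chr14:56262335-56262584, minus strand) were called in neither comparison of classes.
Prf1: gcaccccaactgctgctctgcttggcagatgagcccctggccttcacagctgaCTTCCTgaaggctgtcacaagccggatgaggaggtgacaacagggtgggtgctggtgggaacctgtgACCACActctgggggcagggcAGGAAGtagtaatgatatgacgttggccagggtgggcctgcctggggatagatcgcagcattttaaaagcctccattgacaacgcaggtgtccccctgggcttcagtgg
Klra4: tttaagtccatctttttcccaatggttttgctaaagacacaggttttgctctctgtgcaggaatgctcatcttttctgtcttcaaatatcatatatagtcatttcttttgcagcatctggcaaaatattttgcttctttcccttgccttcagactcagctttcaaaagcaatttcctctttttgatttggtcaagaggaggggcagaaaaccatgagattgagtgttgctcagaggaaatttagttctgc
Klrc1: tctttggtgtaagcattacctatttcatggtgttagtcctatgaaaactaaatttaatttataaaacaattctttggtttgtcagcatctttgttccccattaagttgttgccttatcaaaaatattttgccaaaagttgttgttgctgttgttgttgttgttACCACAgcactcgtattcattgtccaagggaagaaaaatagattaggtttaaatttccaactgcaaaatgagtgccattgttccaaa
Gzma: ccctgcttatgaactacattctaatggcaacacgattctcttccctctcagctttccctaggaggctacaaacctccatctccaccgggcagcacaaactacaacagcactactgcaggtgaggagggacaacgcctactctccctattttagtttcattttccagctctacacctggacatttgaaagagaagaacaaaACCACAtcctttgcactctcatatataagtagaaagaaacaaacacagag
Gzmb: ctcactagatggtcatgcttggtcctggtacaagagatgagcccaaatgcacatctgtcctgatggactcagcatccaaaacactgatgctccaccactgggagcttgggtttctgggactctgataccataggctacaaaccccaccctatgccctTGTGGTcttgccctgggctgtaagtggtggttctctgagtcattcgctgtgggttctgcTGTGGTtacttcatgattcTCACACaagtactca
The RUNX word was found in the windows of Prf1, Klrc1, Gzma and Gzmb and not in that of Klra4. Over the 41 windows matched to 35 members, 19 held it, while 14.0% of all 32851 windows did. The T-box word was in 6 of the 41 windows against 12.3% of all windows, and the ETS word in 17 against 29.5%. Windows of duplicated genes are not independent, and a match is a description of letters, not a binding site.

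Cells were given a class from marker UMIs, none of which was a member. T-like cells held at least 2 UMIs of Cd3d, Cd3e, Cd3g and Trac, and were CD8 T-like if they held Cd8a or Cd8b1. NK-like cells held no UMI of the T cell genes and either Ncr1 or at least 2 of Ncr1, Eomes, Il2rb, Txk, Xcl1 and Tbx21. In the CD45+ libraries 59 cells were NK-like, 185 CD8 T-like and 293 other T-like, of which 109 held Cd4. Of the remaining cells, those with at least 3 UMIs over a list of myeloid genes that included Csf1r, C1qa, C1qb, C1qc and Lyz2 were myeloid-like, and 6540 of them with at least 2 UMIs of P2ry12, Tmem119, Siglech and Sall1 were called microglia-like and 2395 other myeloid-like. Ncr1 stood at 503 CPM in NK-like cells, and it was at 0 in CD8 T-like cells, which the rule did not require. Trac stood at 691 in CD8 T-like cells and, by the rule, at 0 in NK-like cells. T-like and NK-like cells with a high share of myeloid UMIs (139 cells) were set aside as mixed. The neutrophil-like class (645 cells) was not pure, since 60.2% of its cells held S100a8 and 55.2% held C1qa, a microglial and macrophage gene.

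NK-like cells made up 0.527% of the CD45+ cells and held 15.5% of the 5952 member UMIs. CD8 T-like cells held 20.1% and other T-like cells 9.07%. A further 16.3% lay in other myeloid-like cells, 12.05% in microglia-like cells, which were 58.5% of the cells, 6.37% in neutrophil-like cells and 15.1% in cells of no class. The members summed to 8609 CPM in NK-like, 2708 in CD8 T-like, 775 in other T-like, 177 in other myeloid-like and 50.7 in microglia-like cells. As a level for free RNA, oligodendrocyte-like cells of the CD45- sort with no human EGFR UMI held no UMI of Gzma, Gzmb, Nkg7, Prf1, Klrd1, Klrk1 or Klrb1b, which allows up to 0.41 CPM for each by the exact Poisson limit, counting error only. Gzmm (2.55 CPM), Klre1 and Klrg2 (0.888 each) and, with 1 or 2 UMIs, Klra2, Klrb1a and Klrb1c were detected there. These cells were in other libraries than the CD45+ cells, so free RNA in the CD45+ libraries was not measured by them.

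**Figure D1:**
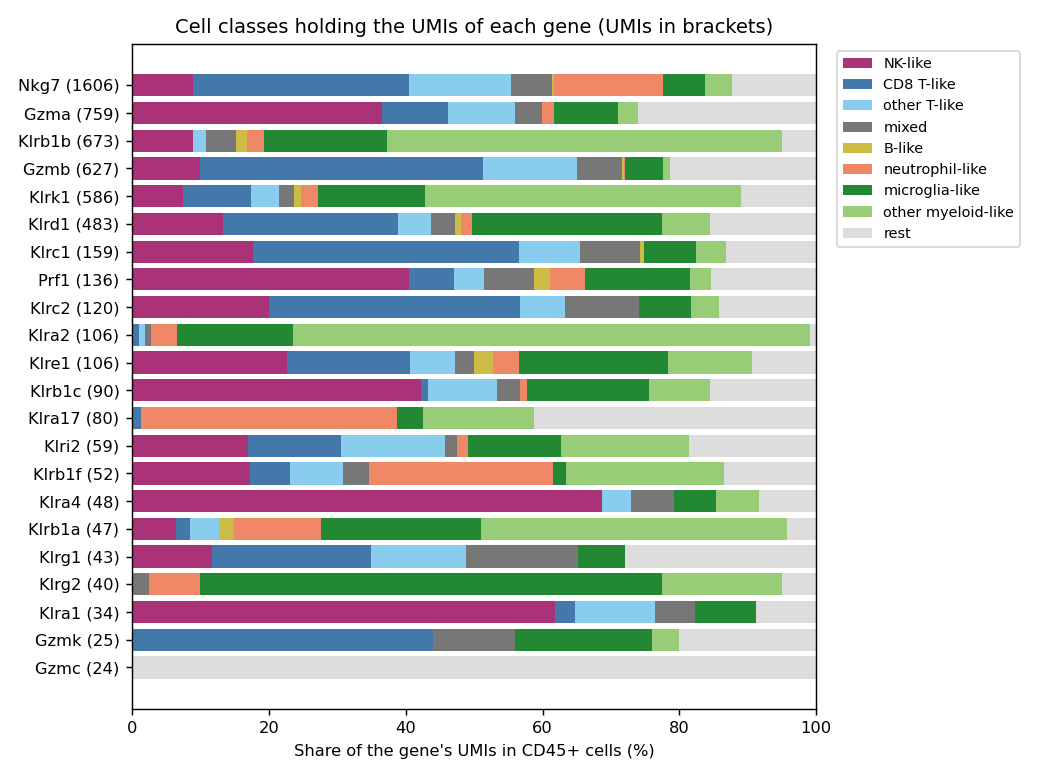
Share of the UMIs of each member with at least 20 UMIs in CD45+ cells (horizontal axis, percent) by cell class (colors), with the number of UMIs in brackets. Klra4, Klra1, Klrb1c and Prf1 had their largest share in NK-like cells, Gzmb, Nkg7, Klrc1 and Klrc2 in CD8 T-like cells, Klrb1b, Klrk1 and Klra2 in other myeloid-like cells, and Gzmc only in cells of no class.

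Most members tested were higher in the CD45+ sort. Of 35 members with a UMI in either sort, 21 passed the filter on low counts, and 18 of these were higher in CD45+ than in CD45- cells over the 3 tumor samples (edgeR quasi-likelihood test, adjusted p under 0.05), where 20.3% of all 19488 genes tested were. One member, Gzmm, was lower, where 25.7% of all genes were. A member that passed the filter only through the sort where it was high had to differ in level, which alone does not make it pass the test. Of the 18, 9 had no CD45- UMI and 4 more had 1 to 3. Klrb1b, Klrd1, Klra2 and Klrg2 had more CD45- UMIs but also passed only through the CD45+ sort. Neither the count of 18 nor the median of the members tested is therefore read against all genes. The median log2 fold change of the 21 was 6.30, or 4.70 with genes that had no CD45- UMI set at their lower bound, against -0.05 over all genes tested. Nkg7 stood at 49.8 CPM in early, 101 in medium and 16.4 in late CD45+ cells and had no UMI in any CD45- sort. Its level was therefore at least 521-fold higher over the sorts, taking 3 UMIs as the floor for all CD45- cells together (adjusted p = 9.73e-05, edgeR). Gzma stood at 38.7, 18.9 and 29.2 CPM and Gzmb at 29.0, 20.7 and 21.0, again with no CD45- UMI, giving bounds of at least 246-fold and 204-fold. Klrk1 (NKG2D) was at 13.3, 42.6 and 5.20 in CD45+ cells and at most 0.123 in CD45- cells. The Ly49 genes Klra17, with 80 UMIs, and Klra1, with 34, and the NKR-P1 gene Klrb1f, with 52, had none in CD45- cells either. Klra1 stood at 1.67, 1.54 and 0.186 CPM and was at least 11.0-fold higher (adjusted p = 0.00965, edgeR), with 21 of its UMIs in NK-like cells. Klrg1, an inhibitory receptor that binds cadherins, stood at 2.13, 1.23 and 1.49 against 0, 0.152 and 0 (log2 fold change 5.17 ± 0.95 SE, adjusted p = 0.00348, edgeR). Klri2 stood at 1.30, 4.42 and 0.372 against 0, 0.305 and 0.0944 (4.06 ± 0.79, adjusted p = 0.00446). The sorts did not overlap for any of these genes. How many of all genes tested did not overlap was not counted, so nothing is read from this. Klrg2, also among the 18, did overlap, at 0.74, 1.75 and 2.79 CPM against 0.494, 0.61 and 0.85 (adjusted p = 0.0338, edgeR). Its call was lost with DESeq2 (adjusted p = 0.133). In edgeR it was lost with total UMIs in place of TMM scaling (adjusted p = 0.0744) and with every deposited cell (adjusted p = 0.0506). Without the tumor as a block only 13 of the 21 passed the filter, and 10 of the 13 were called higher, where 3470 of all 18433 genes were. Without the medium tumor sample 14 passed and 10 were higher, where 3012 of all 18944 genes were. Of the 18 only Klre1 was tested there and lost its call (adjusted p = 0.0621, edgeR). With total UMIs in place of TMM scaling 17 were called higher, where 2766 of all 19488 genes were. The share of higher among all called genes then fell from 44.1% to 28.6% and the median of all genes moved to -0.41.

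Gzmm, which encodes granzyme M, ran opposite to Gzma and Gzmb, the other granzymes tested. It stood at 0.555, 0.308 and 0 CPM in CD45+ cells and at 4.81, 2.44 and 2.17 in CD45- cells (log2 fold change -2.98 ± 0.62 SE, adjusted p = 0.00605, edgeR). The sorts did not overlap, but Gzmm passed the filter only through the CD45- sort and so had to differ in level. Its 78 CD45- UMIs were spread over 50 cells, 23 of which held at least 2 of Kcne2, Clic6 and Folr1, genes of the choroid plexus epithelium, chosen after the values were seen. Only 308 of the 6596 CD45- cells held 2 of these genes, and they carried 37 of the 78 UMIs. Of the 78, 23 lay in 15 oligodendrocyte-like cells with no human EGFR UMI (whether some of these are among the 308 was not counted), where Gzmm stood at 2.55 CPM (1.62 to 3.83).

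Klrb1a and Klrb1c, NKR-P1 genes of which Klrb1c encodes the NK1.1 antigen of some strains, did not pass the test between the sorts (log2 fold change -0.08 ± 0.77 and 0.55 ± 1.22 SE, adjusted p = 0.948 and 0.742, edgeR). Their levels crossed between tumor samples. Klrb1c stood at 4.16, 3.91 and 1.30 CPM in early, medium and late CD45+ cells and at 0, 3.20 and 10.6 in CD45- cells. Klrb1a stood at 0.833, 1.54 and 4.27 in CD45+ cells and at 0, 2.90 and 10.0 in CD45- cells. The CD45- UMIs lay almost wholly in cells with human EGFR, the transgene that drives the tumor. In late CD45- cells with at least 2 human EGFR UMIs Klrb1c was at 16.9 CPM (95% exact Poisson interval 13.8 to 20.5, 858 cells), against 0.246 (0.006 to 1.37, 1301 cells) in those with none. For Klrb1a the levels were 16.4 (13.4 to 19.98) and 0.986 (0.269 to 2.52). In the medium sample the EGFR cells held 15 Klrb1c and 19 Klrb1a UMIs and the cells without EGFR UMIs held 0 of either. The late EGFR cells were also deeper, with a median of 6129 UMIs against 2417. Levels are scaled to CPM, and the part of depth in the difference was not tested. Late EGFR cells with a Pdgfra UMI, a gene of glial progenitors, held Klrb1c at 15.4 CPM and those without at 18.4, with overlapping intervals (11.3 to 20.5 and 14.0 to 23.9). The late cells with either gene came from all 4 libraries (29, 44, 29 and 23 cells), and 20 of the 125 held both genes. The neighbouring Klrb1b was at 0.977 CPM in the same EGFR cells, and Nkg7, Gzma and Gzmb had no UMI there. When cells with any human EGFR UMI were left out of both sorts, an alternative chosen after the data were seen, 17 of the 21 members were tested and 15 were called higher (edgeR), where 4672 of all 18729 genes were. Klrb1c was among the 15, as it had to be once these UMIs were taken out.

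**Figure D2:**
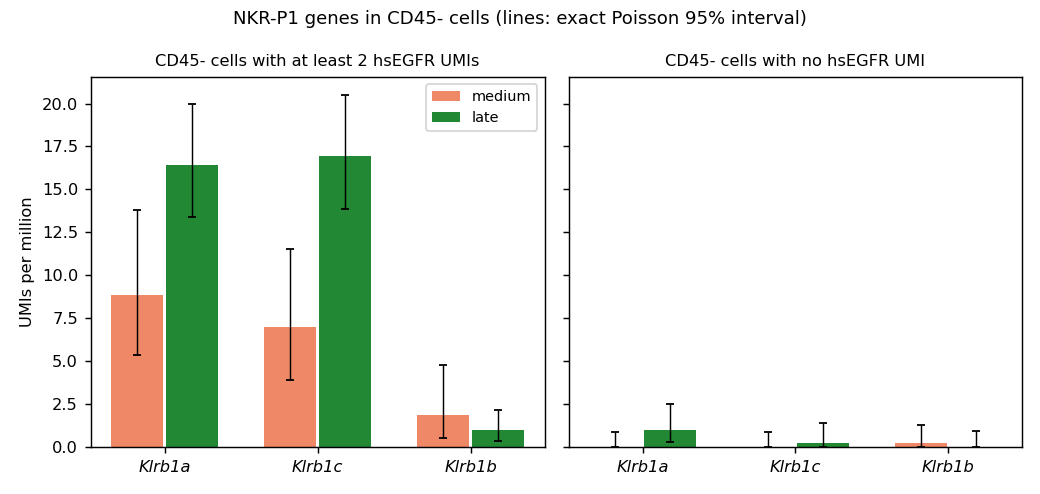
CPM (vertical axis) of Klrb1a, Klrb1c and Klrb1b in CD45- cells with at least 2 human EGFR UMIs (left) and with none (right), in the medium and late tumor samples, with exact Poisson 95% intervals as lines. Klrb1a and Klrb1c reached 16.4 and 16.9 in late EGFR cells and stayed under 1 in cells without EGFR UMIs, while Klrb1b stood at 0.977 in late EGFR cells.

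NK-like cells were set against CD8 T-like cells to ask which members the classes share. Of 26 members with a UMI in either class, 11 passed the filter, 4 were higher in NK-like cells (1.77% of all 1071 genes tested were) and 0 were lower (1.68% of all genes were). The median log2 fold change of the 11 was 1.47, also with the genes at 0 set at their bound, against -0.03 over all genes. With DESeq2 5 were higher and 0 lower, where 10 and 5 of the 15643 genes in that fit were. At an unadjusted p under 0.05, 113 of the 1071 genes differed. The 4 were the NKR-P1 receptors Klrb1b and Klrb1c, the Ly49 receptor Klra4 and Prf1. In CD8 T-like cells Klrb1b and Klra4 had no UMI, Klrb1c had 1 and Prf1 had 9. All 4 passed the filter only through the NK-like cells and so had to differ in level. The count of 4 is no measure of how often members differ. Klrc1, Klrc2, Klrk1 and Gzma also passed the filter only through the NK-like cells. The median of the 11 is therefore not read against that of all genes. Klrb1b, an inhibitory receptor for Clec2d, stood at 834, 406 and 323 CPM in early, medium and late NK-like cells and had no UMI in CD8 T-like cells, so that it was at least 82.3-fold higher (adjusted p = 5.76e-11, edgeR). Klrb1c stood at 430, 309 and 323 in NK-like cells and had 1 UMI in CD8 T-like cells (adjusted p = 5.62e-05). Klra4 stood at 202, 374 and 323 in NK-like cells against no UMI, at least 45.3-fold higher (adjusted p = 9.13e-05). Prf1 stood at 430, 568 and 485 against 27.03, 15.2 and 0 (log2 fold change 4.61 ± 0.81 SE, adjusted p = 4.07e-06). In none of the 4 did the classes overlap over the 3 tumor samples, which was not counted over all genes. All 4 passed without the late tumor sample, which held 4 NK-like cells. Klrb1b, Klrb1c and Prf1 were called under each alternative run for this comparison, while Klra4 did not pass the filter, and so was not tested, without the medium tumor sample or with the stricter class rule.

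The CD94 and NKG2 genes were detected in both classes. Klrd1 (CD94) was at 809, 471 and 485 CPM in NK-like and 230, 320 and 441 in CD8 T-like cells, a log2 difference of 1.02 ± 0.40 SE (adjusted p = 0.207, edgeR). Klrc1 was at 329, 211 and 323 against 140, 147 and 88.2 (1.00 ± 0.73, adjusted p = 0.818), and Klrc2 at 329, 146 and 323 against 81.1, 117 and 132 (1.17 ± 0.87, adjusted p = 0.824). These 3 genes were higher in NK-like cells in 3 of 3 tumor samples without passing the test. In the late sample this rested on 2 against 2 UMIs for Klrc1, 2 against 3 for Klrc2 and 3 against 10 for Klrd1. Klrk1 was higher in 2 of 3 tumor samples (log2 difference 1.47 ± 0.58, adjusted p = 0.205, edgeR). Klrc1, Klrc2 and Klrk1 passed the filter only through the NK-like cells, which favours a higher level there.

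The granule genes other than Prf1 did not pass the test between these classes. Nkg7 was at 1740, 1070 and 1290 CPM in NK-like and 1230, 1030 and 1370 in CD8 T-like cells, a log2 difference of 0.19 ± 0.27 SE (adjusted p = 0.999, edgeR). Gzmb was at 329, 633 and 1620 against 820, 66.0 and 2870, with the classes overlapping (0.24 ± 1.34, adjusted p = 0.999). Gzma was at 3590, 1320 and 8730 against 167, 15.2 and 1500, higher in NK-like cells in 3 of 3 tumor samples (4.02 ± 0.92, adjusted p = 0.358). The call for Gzma depended on the fit, with adjusted p between 1.16e-22 and 8.77e-05 without the medium or the late tumor sample, under DESeq2, with every gene tested and with the stricter class rule. Gzmk, the granzyme next to Gzma, had 11 UMIs in CD8 T-like cells, 6 of them in 1 late cell, and none in NK-like cells.

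**Figure D3:**
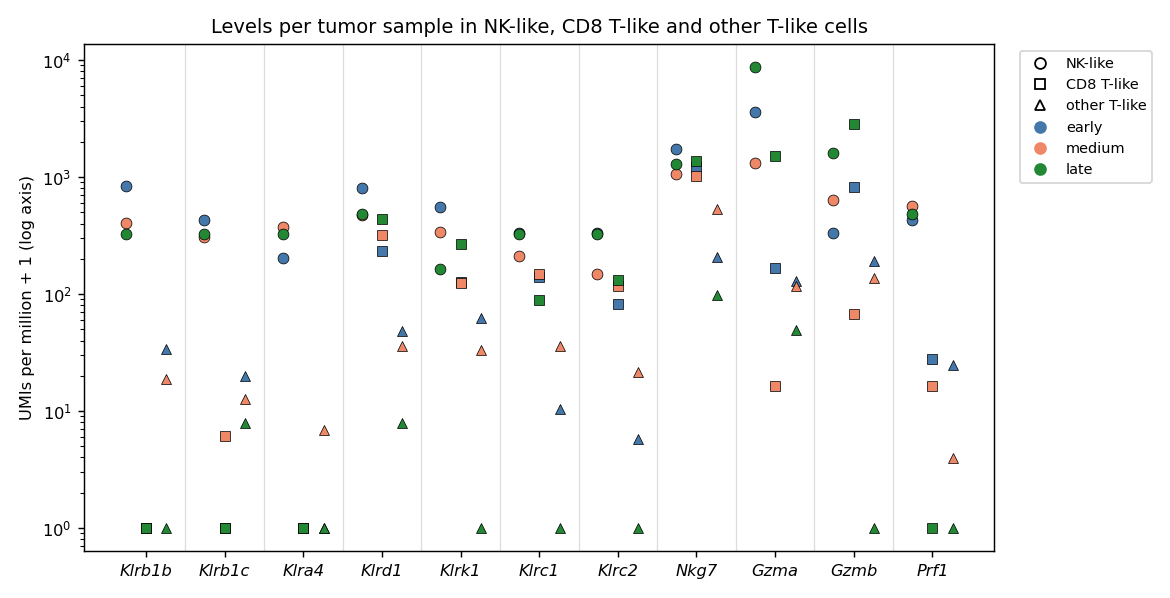
CPM plus 1 (vertical log axis) of 11 members in NK-like (circles), CD8 T-like (squares) and other T-like cells (triangles) of the early, medium and late tumor samples (colors). Klrb1b, Klrb1c, Klra4 and Prf1 separated NK-like from CD8 T-like cells in all 3 samples, whereas the Nkg7 and Gzmb levels of these classes overlapped.

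CD8 T-like cells carried more of 4 members than other T-like cells. Of 24 members with a UMI in either class, 7 passed the filter, 4 were higher in CD8 T-like cells (0.191% of all 4183 genes were) and 0 lower (0.622% of all genes were). Of the 4, Klrd1, Klrc1 and Klrc2 passed the filter only through the CD8 T-like cells and so had to differ in level. Nothing is read from 4 of 7 against the share of all genes. Klrk1 also passed the filter only through the CD8 T-like cells. The median of the 7 is therefore not read against that of all genes either. The median log2 fold change of the 7 was 2.26, against -0.07 over all genes. With DESeq2 2 were higher and 0 lower, where 5 and 8 of the 18324 genes in that fit were. In the edgeR fit 190 of the 4183 genes differed at an unadjusted p under 0.05. Nkg7 was at 1230, 1030 and 1370 CPM against 208, 532 and 96.7 in other T-like cells (log2 fold change 2.15 ± 0.31 SE, adjusted p = 3.99e-09, edgeR). Klrd1 was at 230, 320 and 441 against 47.2, 35.2 and 6.90 (3.14 ± 0.51, adjusted p = 2.57e-07). Its partners Klrc1 (2.84 ± 0.68, adjusted p = 0.00482, edgeR) and Klrc2 (3.28 ± 0.81, adjusted p = 0.00701) moved the same way. No level of these 4 genes overlapped between the classes, which was not counted over all genes. The calls for Klrc1 and Klrc2 were lost without the early or the medium tumor sample, without the block, under DESeq2, with every gene tested and with the stricter class rule (adjusted p from 0.0721 to 1). Without the block Klrd1 alone passed, and without the medium tumor sample Nkg7 alone passed (adjusted p = 0.298 for Nkg7 and 0.373 for Klrd1 where each was lost). Klrk1 was higher in 3 of 3 samples (2.02 ± 0.60, adjusted p = 0.0753).

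The granzymes did not pass the test between CD8 T-like and other T-like cells. Gzmb was at 820, 66.0 and 2870 CPM in early, medium and late CD8 T-like cells against 189, 135 and 0 in other T-like cells, higher in 2 of 3 tumor samples (log2 fold change 2.26 ± 2.36 SE, adjusted p = 1, edgeR). With the stricter class rule Gzmb was called higher (1.84, adjusted p = 0.0381). Gzma was at 167, 15.2 and 1500 against 127, 117 and 48.3, also higher in 2 of 3 (0.82 ± 2.06, adjusted p = 1). The levels of both genes overlapped between the classes.

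Other T-like cells were of more than 1 kind, and the stages were pooled to compare those with and without Cd4. Those with Cd4 (109 cells) held Gzmb at 11.2 CPM (95% exact Poisson interval 2.32 to 32.8) and those without (184 cells) at 193 (154 to 239). Klrd1 was at 7.48 (0.906 to 27.03) and 48.9 (30.2 to 74.7). Gzma lay the other way, at 142 (101 to 195) and 83.8 (58.7 to 116), where the intervals overlapped and 4 cells held the 38 UMIs of the Cd4 group. For Nkg7 the intervals also overlapped, at 378 (308 to 459) and 321 (270 to 379). Counts of Cd4 are sparse, so a cell without a Cd4 UMI is not shown to lack it.

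Other genes of the pathway were counted by list. Against CD45- cells, where 20.3% of all genes tested were higher and 25.7% lower, 10 of 10 tested death ligands and cytokines were higher in CD45+ cells, as were 5 of 6 adaptors, 7 of 8 ligands of the receptors, 9 of 12 granule and release genes, 6 of 7 other NK receptors and 5 of 11 transcription factors, with 1 factor lower. Some list genes had no or nearly no CD45- UMI, such as Fasl, Tbx21, Ncr1, Cd96 and H60b. They also passed the filter through the CD45+ sort and had to differ in level. These counts are therefore not read against the share of all genes. Ifng, the NK and T cell cytokine, lay between 6.32 and 42.8 CPM in the CD45+ sorts and had no CD45- UMI. In NK-like against CD8 T-like cells, where 1.77% of all genes tested were higher, 2 of 4 tested adaptors were higher, Fcer1g (log2 fold change 2.83 ± 0.46 SE, adjusted p = 3.6e-07, edgeR) and Tyrobp (2.15 ± 0.43, adjusted p = 1.12e-04), which pass signals from activating receptors. They are also myeloid genes. Csf1r, a myeloid marker, was at 130 CPM in NK-like and 202 in CD8 T-like cells, C1qa at 289 and 319, C1qb at 112 and 204, C1qc at 168 and 179, Lyz2 at 27.95 and 138, P2ry12 at 121 and 83.8, Tmem119 at 46.6 and 40.8, Siglech at 37.3 and 49.8, and Sall1 at 9.32 and 4.53. Their part in these calls was not tested. Serpinb6b was the only granule and release gene of 5 to pass the test (3.79 ± 1.03, adjusted p = 0.0103, edgeR). It stood at 354, 455 and 0 CPM against 18.0, 40.6 and 0. The difference was seen in the early and medium samples and no UMI was found in the late one. Fcer1g, Tyrobp and Serpinb6b passed the filter only through the NK-like cells and so had to differ in level. The counts of adaptors and granule genes called here are therefore not read against the share of all genes. No ligand, death ligand, cytokine or transcription factor of those tested was called between NK-like and CD8 T-like cells. Of 39 list genes tested between CD8 T-like and other T-like cells 0 were called. There 0.191% of all genes tested were higher and 0.622% lower, so the count of 0 is not read as a result about the lists.

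The summed level of the members in CD45+ cells was 203 CPM early, 316 medium and 125 late (95% exact Poisson intervals 195 to 212, 305 to 328 and 116 to 135). Receptors stood at 78.0, 168 and 53.7, and granzymes with Prf1 and Nkg7 at 125, 149 and 71.7. Within sequencing runs the early level spanned 164 to 301 and the medium 288 to 331, so the intervals, which cover counting error only, are narrower than the spread between runs. NK-like cells were 0.452% (0.287 to 0.677, Clopper-Pearson), 0.803% (0.550 to 1.13) and 0.189% (0.052 to 0.484) of the CD45+ cells, again in order of stage, and CD8 T-like cells 1.77% (1.42 to 2.17), 2.11% (1.69 to 2.60) and 0.521% (0.260 to 0.930). In the sums over all CD45+ cells, fewer cells of a type and less RNA per cell cannot be told apart. Within NK-like cells the members summed to 10716 CPM early, 6594 medium and 15191 late, a log2 ratio of -0.70 (interval -0.90 to -0.50) for medium over early and of 0.50 (0.17 to 0.83) for late over early. One late NK-like cell held 59 of the 94 member UMIs, and without it, an alternative chosen after the data were seen, the late level was 7863 CPM and the late over early ratio turned to -0.45. Within CD8 T-like cells they summed to 2888, 2015 and 6968, with ratios of -0.52 (-0.70 to -0.34) and 1.27 (1.01 to 1.52), the second of which was 0.65 with the stricter class rule and 0.95 without the late cell with the most member UMIs. Of the 3 samples the medium one thus had the lowest level in NK-like and CD8 T-like cells, and the late values rest on 4 and 11 cells. Other classes ran otherwise. Other T-like cells stood at 817, 996 and 193 CPM, neutrophil-like cells at 48.97, 249.6 and 60.5, microglia-like cells at 38.3, 83.1 and 54.9, and other myeloid-like cells at 132.0, 245.3 and 60.5, all highest in the medium sample. Mixed cells stood at 1041, 655 and 460 and cells of no class at 955, 352 and 217, highest in the early sample. So were B-like cells (marked by Cd79a, Cd79b and Ms4a1), at 108, 80.1 and 29.4, with 5 member UMIs early. The early and medium shares of NK-like cells had overlapping intervals, as did those of CD8 T-like cells. The shares of the other classes did not. Other T-like cells were 1.886% early and 3.44% medium, and neutrophil-like cells 3.654% and 9.566%. Microglia-like cells were 79.0% and 32.4%, and other myeloid-like cells 8.446% and 35.5%. A share within run 1 rests on too few cells to order the stages (1 of 136 early and 3 of 686 medium cells were NK-like).

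Within CD8 T-like cells the levels of Gzma and Gzmb lay further apart between the early and medium samples than those of Nkg7, Klrd1, Klrc1 and Klrk1. In CD8 T-like cells Gzmb was at 820 CPM early (705 to 948, 36 of 90 cells), 66.0 medium (35.1 to 113, 4 of 84 cells) and 2870 late (2212 to 3654, 6 of 11 cells). Gzma followed the same order, at 167, 15.2 and 1500. The medium over early log2 ratio was -3.64 for Gzmb (interval -4.57 to -2.82) and -3.45 for Gzma (-5.79 to -1.79), against -0.26 for Nkg7 (-0.53 to 0.01), 0.48 for Klrd1 (-0.08 to 1.04), 0.08 for Klrc1 (-0.71 to 0.85) and -0.05 for Klrk1 (-0.90 to 0.79). The medium CD8 T-like cells thus held Nkg7 and the CD94 and NKG2 receptors at levels whose ratio intervals to the early sample included 0, with few granzyme UMIs. Klre1, whose product pairs with Klri chains, had 2 early and 16 medium UMIs in these cells, a log2 ratio of 3.17 (1.08 to 6.34). All granzymes together were at 1005 early, 91.4 medium and 4631 late.

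In NK-like cells Gzma was likewise lowest in the medium sample, at 3589 early (3023 to 4230, 12 of 23 cells), 1316 medium (1045 to 1635, 13 of 32 cells) and 8727 late. The late value came from 4 cells, 1 of which held 38 of the 54 UMIs. Gzmb did not follow Gzma, at 329 (175 to 562), 633 (450 to 866) and 1616 (775 to 2972). Prf1 was at 430 (250 to 688), 568 (396 to 791) and 485 (100.0 to 1417), with every interval overlapping the others. Klrb1b was at 834 (574 to 1171) early and 406 (263 to 599) medium. In other T-like cells Nkg7 was at 208 (151 to 279) early, 532 (457 to 615) medium and 96.7 (52.8 to 162) late, and Gzmb at 189, 135 and 0. The make-up of this class differed by stage. Cd4 was held by 26 of 96 early, 56 of 137 medium and 27 of 60 late cells, and Foxp3 by 2, 16 and 1. The part of this in the levels was not tested.

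**Figure D4:**
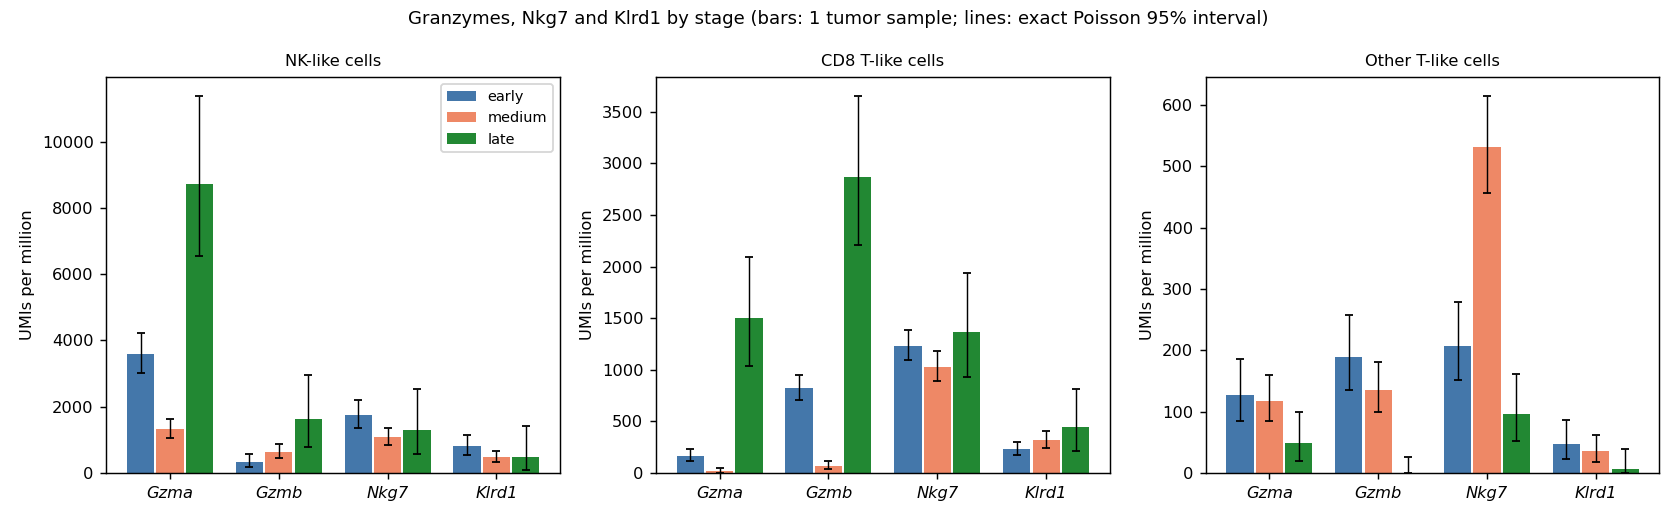
CPM (vertical axes, which differ between panels) of Gzma, Gzmb, Nkg7 and Klrd1 by stage in NK-like, CD8 T-like and other T-like cells, with exact Poisson 95% intervals as lines and 1 tumor sample per bar. Gzma and Gzmb in CD8 T-like cells were lowest in the medium sample (15.2 and 66.0), while Nkg7 stayed between 1030 and 1367.

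Receptors and granule genes were not always in the same cell. Of the 59 NK-like cells, 36 held both a receptor UMI and a granzyme or Prf1 UMI, 17 held a receptor only, none held an effector only and 6 held neither. Of the 185 CD8 T-like cells 35 held both, 66 a receptor only, 26 an effector only and 58 neither. At this depth per cell a missing UMI does not show that a gene was silent.

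Myeloid-like cells held a receptor part of the list with little of the effector part. Klrb1b had 57.7% of its 673 UMIs in other myeloid-like cells, where it stood at 39.6 (27.7 to 54.8), 102 (91.1 to 114) and 23.8 (16.6 to 33.1) CPM in the early, medium and late samples, against 3.70, 15.1 and 16.1 in microglia-like cells. Klrk1 stood at 45.1 (32.4 to 61.2), 71.1 (62.1 to 81.2) and 6.12 (2.80 to 11.6), against 2.98, 19.7 and 3.78. Klra2, a Ly49 gene, had 80 of its 106 UMIs in other myeloid-like cells and 0 in NK-like cells. In all other myeloid-like cells Gzma was at 4.01, Gzmb at 1.09 and Nkg7 at 11.5. In NK-like cells Nkg7 had 143 UMIs to 60 of Klrb1b, and in other myeloid-like cells 63 to 388, so the ratio of these genes differed between the classes. The comparison of myeloid classes was chosen after the values were seen and was not tested. Other myeloid-like cells with Klrk1 (173 cells) also held Cxcl9 at 1557 CPM against 403 in those without, Isg15 at 589 against 214 and Irf7 at 210 against 70.4. Of these 173 cells 141 came from the medium tumor sample, which gave 1412 of all 2395 other myeloid-like cells, so these levels mix stage and Klrk1. Cells with and without Klrk1 were not compared within the medium sample.

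**Figure D5:**
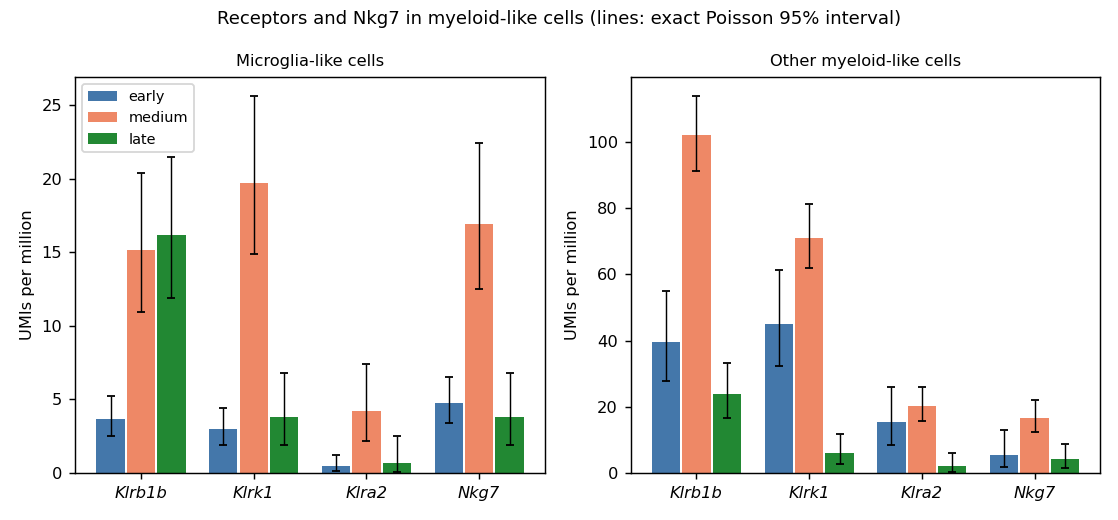
CPM (vertical axes, which differ between panels) of Klrb1b, Klrk1, Klra2 and Nkg7 by stage in microglia-like and other myeloid-like cells, with exact Poisson 95% intervals as lines. In other myeloid-like cells Klrb1b and Klrk1 reached 102 and 71.1 in the medium sample and stood at 23.8 and 6.12 in the late one.

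Microglia-like cells held Klrd1 at a near-constant low level of 9.90 (7.88 to 12.3), 9.86 (6.55 to 14.3) and 7.90 (5.01 to 11.9) CPM over the stages, in 84 of 6540 cells, so that 27.7% of all Klrd1 UMIs lay in this large class. Klrg2 had 27 of its 40 UMIs there. Nkg7 (99 UMIs in 56 cells) and Gzma (71 UMIs in 19 cells, with up to 18 in a cell) were also found, and the part of free RNA and of doublets in these low levels was not tested. Scrublet, which scores cells for doublets, called only 0.294% of CD45+ cells and so removed few. The study's methods describe a subtraction of free RNA and a removal of doublets, and whether the counts used here had passed through them is not known.

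A few members lay in cells outside the T-like and NK-like classes. Nkg7 had 254 UMIs in 58 medium neutrophil-like cells, 1 in a late cell and none in early ones. The 59 cells held Elane at 9530 CPM against 61.6 in the other neutrophil-like cells, Prtn3 at 7685 against 74.2 and Mpo at 3329 against 37.7, proteins of the primary granules made by neutrophil precursors. Klra17 had 63 of its 80 UMIs in neutrophil-like cells and cells of no class, and none in NK-like cells. Those Klra17 cells (32 cells) held Mmp8, a neutrophil gene, at 2554 CPM against 345 in the other cells of these classes, and Ccr9 at 508 against 34.5 and Spib at 298 against 19.8, genes of plasmacytoid dendritic cells. Cd8b1 was at 372 against 46.5, in 7 of the 32 cells. Gzmc had all of its 24 UMIs in 4 cells of no class. Mcpt8, Ms4a2 and Hdc, genes of basophils and mast cells, were each held by 3 of the 4. Whether these were the same cells was not counted. These companion genes were picked after the values were seen.

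Members with few UMIs were given by counts only. Klra7 had 12 UMIs, Gzmm 9, Klra13-ps and Klra9 7 each, Klra3 5, and 7 further members 1 or 2 in CD45+ cells. Klrb1, Klrb1-ps1, Klra6, Klra14-ps, Gzmd, Gzme, Gzmg and Gzmn had none, with an exact Poisson upper limit for each of 0.341 CPM in early, 0.379 in medium and 0.685 in late CD45+ cells.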

How the data were processed

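The authors sequenced the inDrop libraries in 3 runs, mapped reads to a mouse transcriptome with RapMap in bcbio-nextgen and called cells against empty droplets. The submitters' notes name mm10. The deposited table holds UMI counts per gene and cell, a whole number with no normalization. Stage and sort were taken from the deposited annotation. The study's methods also subtract free RNA by cluster (removeAmbience) and drop doublets (scDblFinder), and whether the deposited table precedes these steps is not given in the sources used here. The columns listed for the 3 GEO samples were all used.

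Cells with at least 500 UMIs and 500 genes and at most 20% mitochondrial UMIs were kept, and doublets were removed per library with Scrublet (scanpy 1.11.5). Classes came from marker UMIs. An allele of the tumor model and a myeloid marker are not reported here. Members, gene lists and tests were chosen with earlier results of these data known. UMIs were summed per tumor sample and tested with edgeR 4.0.16 (R 4.3.3, TMM, filterByExpr, quasi-likelihood, two-sided), with the tumor as a block because both sides of each pair came from the same tumor, and Benjamini-Hochberg adjustment over all genes tested at 0.05. Deviations of the paired sums from their group means correlated at 0.267 to 0.362 between the sorts, 0.131 to 0.326 between NK-like and CD8 T-like cells and 0.103 to 0.285 between CD8 T-like and other T-like cells. Libraries of a tumor are technical and were summed, and p-values rest on 3 tumor samples of different stages. Stages have 1 sample each and got exact Poisson or Clopper-Pearson 95% intervals, which cover counting error only. In bounds on a fold, a level of 0 was set to 3 UMIs over the group. Counts are of 3′ ends and were not divided by gene length.

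Members were named with values if they had at least 20 UMIs in CD45+ cells or were called in a test, and list genes by up to 3 called genes with the largest fold. Cells with human EGFR UMIs were taken out of the oligodendrocyte-like reference after the data were seen. On simulated counts with a log2 change of 3 the fit recovered 100% of changed genes between the sorts, 97.3% for NK-like against CD8 T-like and 94% for CD8 T-like against other T-like cells. The simulation gave every gene the same spread and no tumor effect, and changed only genes above a floor of UMIs. Members with a larger spread, such as Gzma and Gzmb between the classes, and members with few UMIs are not covered by these rates. Alternatives were DESeq2 1.42.0, no TMM, no filter, no block, each tumor left out, all cells, doublets or mixed cells kept, stricter classes, single runs and per-cell means.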

Additional observations from a re-analysis of the deposited data

Results flagged for a closer look

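CD45+ cells that met no class rule (787 cells) entered neither the NK-like nor the T-like comparisons, yet 10 members had at least 20 UMIs there. With that many UMIs a member had to lie above the exact Poisson upper limit of the oligodendrocyte-like reference (0.41 CPM). Passing this limit therefore adds nothing, and the reference cells came from CD45- libraries. Members with fewer UMIs in these cells were not listed. Gzma and Nkg7 were each at 96.6 CPM, Gzmb at 65.4, Klrd1 at 36.6 and Klrk1 at 31.2. Klrb1b was at 16.6, Klra17 at 16.1, Gzmc at 11.7, and Klrc1 and Prf1 at 10.2 each. Of the 198 Gzma UMIs, 122 came from 1 early cell with 6105 UMIs, and of the 134 Gzmb UMIs 52 came from 1 medium cell. The Nkg7 UMIs were spread over 73 cells. The class rules did not take these cells as T-like or NK-like, yet they held Cd8b1 at 99.03 CPM (8.26% of the cells), Il2rb at 80.5 (8.39%), Cd8a at 44.4, Xcl1 at 34.1, Trac at 18.05 and Ncr1 at 1.95. They also held markers of dendritic cells, with Bst2 at 191.7, Siglech at 155.6 (9.15%), Ccr9 at 86.8, Flt3 at 79.03 (11.6%) and Xcr1 at 77.1. Clec9a and Cd209a, also on that list, were at 13.7 and 13.2. Other myeloid-like cells held more Bst2 (216.6) and Cd209a (20.1), and microglia-like cells more Siglech (1397), a gene of their rule. The mast cell genes Cma1 at 193.7 and Cpa3 at 184.4 were each found in 1.65% of the cells, with Kit at 57.6 and Fcer1a at 29.8. The part of each cell type in the member levels was not tested.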

How the results depend on the processing

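The 18 members called higher in CD45+ cells became 10 without the replicate block and 10 to 16 when a tumor sample was left out, where 13 and 14 to 19 of the 21 members passed the filter, and the member called lower stayed at 1. Of all genes 3958 were called higher there, 3470 without the block and 3012 to 3124 when a tumor sample was left out. The 4 members higher in NK-like than CD8 T-like cells were 4 to 5 when a tumor sample was left out, and 4 without the replicate block. Without the medium tumor sample Klra4 was not tested and Gzma was the fourth. The 4 members higher in CD8 T-like than other T-like cells became 2 with DESeq2, 2 with every gene tested, 1 without the replicate block and 1 to 4 when a tumor sample was left out. Within runs 1, 2 and 3 the summed level was 301, 252 and 164 CPM early and 288, 331 and 297 medium, and 73.5 late in run 1. The early NK-like share was 0.735% in run 1 (1 cell of 136), 0.694% in run 2 and 0.255% with the stricter class rule, the medium share 0.437% in run 1 (3 of 686) and 0.326% with the stricter rule, and the late share 0% in run 1. The CD8 T-like share was 0.735% early in run 1 (1 cell), 1.32% early and 1.41% medium with the stricter rule and 0% late in run 1. The log2 ratio of summed members went from -0.70 to -0.46 with the stricter rule (medium over early, NK-like), from -0.52 to -0.82 in run 2 (medium over early, CD8 T-like) and from 1.27 to 0.65 with the stricter rule, 1.68 as a mean over cells or 0.95 without the late cell with the most member UMIs (late over early, CD8 T-like). Without the corresponding cell the NK-like late over early ratio reversed from 0.50 to -0.45, since 1 of 4 cells held most of the UMIs. The other run-wise ratios had too few cells.

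Over all genes tested, the higher and lower calls between NK-like and CD8 T-like cells were 19 and 18, and became 10 and 5 with DESeq2, 10 and 14 without the block, 15 and 11 with mixed cells kept, and 9 and 5, 21 and 10, or 16 and 9 without the early, medium or late tumor. Between CD8 T-like and other T-like cells they were 8 and 26, and became 5 and 8 with DESeq2, 5 and 28 with every gene tested, 4 and 4 without the block, 12 and 50 with mixed cells kept, 7 and 7 with the stricter rule, and 5 and 7, 3 and 5, or 13 and 26 without a tumor. The genes that changed direction passed the test in neither fit, and the cause was not tested. Klrb1a between the sorts was 0.38 with DESeq2, 0.039 with every deposited cell and -0.64 to 0.67 when a tumor was left out, and Klrb1c was -0.091 without the replicate block and -0.76 to 2.25 when a tumor was left out. Gzmb in NK-like against CD8 T-like cells was -0.073 with DESeq2, -0.18 with every gene tested, -0.74 without the replicate block and -1.17 to 1.20 when a tumor was left out, and Nkg7 was -0.20 with every gene tested and -0.032 with mixed cells kept. Gzma in CD8 T-like against other T-like cells was -0.82 to 2.26 when a tumor was left out. The late NK-like and CD8 T-like values rest on 4 and 11 cells.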
